A study of Mus musculus with 8 samples.

Results

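The comparison described here asked which liver genes differed after 3 months of high-fat feeding, the shorter of the 2 feeding times in a study of hepatic inflammation in mice. It used 4 of the 8 arrays of the series, chosen by their titles: 2 from mice on a normal diet (ND) for 3 months and 2 from mice on a high-fat diet (HFD) for 3 months. All mice were male C57BL/6 animals bought at 5 weeks of age, with no engineered allele named and free access to food, and their age at sampling is not given in the sources used here. The ND (3.8 kcal per g) was given as 4.8% fat, 50.21% carbohydrate and 20.78% protein. The HFD (D12231, 5.2 kcal per g) was given as 58% fat, 25.5% carbohydrate and 16.4% protein. The percentages of the 2 diets may be of unlike measures, weight or energy, so they are not set against each other here. The diets may differ in more than fat. Per the labels each array held RNA of whole liver from a separate mouse, labelled with Cy3 and hybridised to a 1-colour Agilent array. The 4 arrays of 9 months, 2 per diet, entered the fit as a source of error and served for a comparison of the feeding times.

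The liver takes up fatty acids from blood, burns them in mitochondria and peroxisomes, stores them as triglyceride in lipid droplets and exports them in lipoproteins. Fatty acids activate the nuclear receptor PPARα, which drives the genes of their oxidation. In mice, the pulsed release of growth hormone in males sets a large group of liver genes to levels that differ between the sexes. Fatty liver in obesity is known for infiltration by macrophages, for chemokine production and, later, for collagen laid down by activated stellate cells.

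Each value is a log2 level relative to the 75th percentile of the intensity on its array, and each change is a log2 change, HFD minus ND, ± SE from 1 limma fit (n = 2 mice per group). A change passed the test at a Benjamini-Hochberg adjusted p under 0.05, and "rose" and "fell" are used only of such changes. The 75th percentile of intensity was 560 and 482 on the ND arrays and 368 and 428 on the HFD arrays. The share of spots well above background was 52.5% and 44.4% on the ND arrays and 43.0% and 46.9% on the HFD arrays. The arrays of a group differed by a median of 0.14 on ND and of 0.25 on HFD, and repeated spots of a probe varied by a median SD of 0.103 to 0.106 on the ND arrays against 0.202 to 0.213 on the HFD arrays. Both ND arrays lay on 1 slide and both HFD arrays on the other, so diet and slide cannot be told apart in any value below. Hepatocyte markers such as Alb (10.31 and 10.50 on ND, 9.54 and 8.59 on HFD) were bright on all 4 arrays, as the label liver requires, and 0 of the 6 skeletal muscle markers were bright enough to be tested.

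Of 20164 features tested, 1045 (5.18%) passed at 3 months. Both HFD mice lay above both ND mice in 35.6% of all features and below them in 35.4%, so a lack of overlap alone is common here. HFD livers were higher in 305 (1.51%) and lower in 740 (3.67%), and 5294 features had an unadjusted p under 0.05. The split differed by what a feature was: of the 12884 features with a gene symbol 520 passed (4.04%), of which 245 rose (1.9%) and 275 fell (2.13%), while of the 7280 without one 525 passed (7.21%), of which 60 rose (0.824%) and 465 fell (6.39%). Features without a symbol were lower on both HFD mice in 50.6% of cases and higher in 21.6%. Features with a symbol were lower on both HFD mice in 26.8% and higher in 43.5%. These 2 shares, with the 1.9% that rose and the 2.13% that fell, are the base for the list counts below. A gene dim on ND at 3 months was tested only if another group was bright, which can raise the share of rises and the median of a list. Among the features without a symbol, 187 of 2322 probes that the array design gives only as a genomic interval fell (8.05%) and 11 rose. The median change was 0.11 over features with a symbol and -0.46 over the genomic intervals. Called features were not alike in level either. Those with a symbol that rose had a median level of -1.81 on ND and 0.04 on HFD, and those that fell went from 1.45 to -0.76. Where a called gene had other probes bright enough to be kept, these changed on average in the same direction for 35 of 40 genes that rose and for 41 of 53 that fell. With dim probes included the counts were 59 of 68 and 50 of 104. The calls rest on both ND arrays: without replicate 1 of ND 3 months 0 features passed by limma (3030 at unadjusted p under 0.05), and without replicate 2 also 0 (2514). Without HFD 3 months replicate 1 the count was 485, 56 of them higher, and without HFD replicate 2 it was 776, 106 of them higher. With no filter on dim probes 68 passed, and all 1045 kept their sign in each of these 5 fits.

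**Figure D1:**
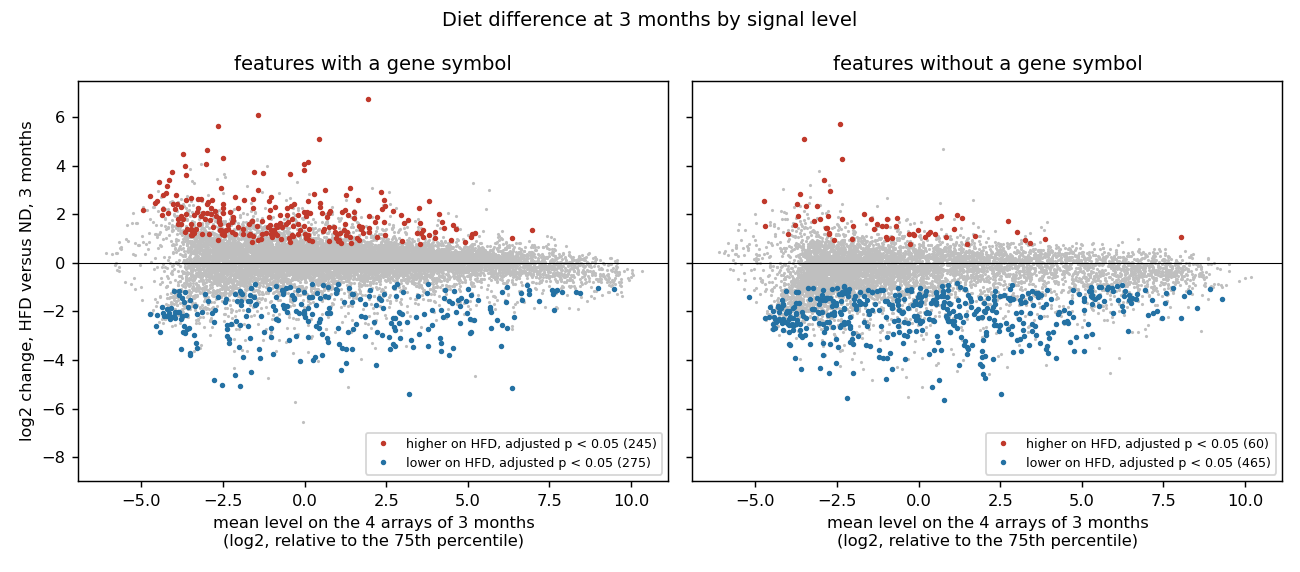
Log2 change (HFD minus ND, 3 months, vertical axis) against the mean log2 level on the 4 arrays (horizontal axis) for features with (left) and without (right) a gene symbol; red and blue points passed the test. The 465 falls outnumber the 60 rises among features without a symbol, while 275 and 245 stand against each other among those with one.

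Among genes well above background on all 4 arrays, the largest rises were those of 2 neighbouring genes for cytochromes P450, oxidases of drugs and steroids, that are usually low in male mouse liver. Cyp2b13 stood at -0.18 and -2.67 on ND and at 5.95 and 4.71 on HFD, a 108-fold rise (adjusted p = 0.0333). Cyp2b9 stood at -1.34 and -2.87 on ND and at 3.12 and 2.86 on HFD, a 34.2-fold rise (adjusted p = 0.0472). For both, the ND mice differed from each other by more than the HFD mice, and the groups did not overlap. Their start regions are shown because they are nearly the same sequence: the RefSeq windows (GRCm38.p6, 250 bases before to 50 after the start, plus strand, chr7:26173159-26173458 for Cyp2b9 and chr7:26061245-26061544 for Cyp2b13) share 298 of 300 bases, and capitals mark the 2 that differ. Probes of such close relatives may share signal, which was not tested.
Cyp2b9: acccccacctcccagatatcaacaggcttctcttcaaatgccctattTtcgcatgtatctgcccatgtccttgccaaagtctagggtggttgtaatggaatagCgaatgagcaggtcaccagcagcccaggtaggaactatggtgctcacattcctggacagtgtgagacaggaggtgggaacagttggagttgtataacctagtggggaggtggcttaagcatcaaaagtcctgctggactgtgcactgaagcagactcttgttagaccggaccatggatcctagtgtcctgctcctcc
Cyp2b13: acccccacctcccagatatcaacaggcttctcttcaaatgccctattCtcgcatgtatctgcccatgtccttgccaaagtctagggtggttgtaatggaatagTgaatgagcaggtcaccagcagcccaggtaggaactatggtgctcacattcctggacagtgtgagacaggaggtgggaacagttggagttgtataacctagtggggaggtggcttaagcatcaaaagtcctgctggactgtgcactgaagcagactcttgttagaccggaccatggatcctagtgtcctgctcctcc
Under quantile normalization the call of Cyp2b9 ended. The relative Cyp2b10, a classic target of the receptor CAR, stood at 4.27 and 2.73 on ND and at 6.93 and 6.67 on HFD, with an adjusted p of 0.0784. The gene of CAR itself, Nr1i3, rose from 3.60 and 3.51 to 5.12 and 4.91 (1.46 ± 0.22, adjusted p = 0.0253). Its relative Nr1i2, which encodes PXR, had values of 2.66 and 2.53 on ND and 3.54 and 3.20 on HFD (adjusted p = 0.0803).

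Other large rises fell into several classes. Rad51b, a gene of DNA repair by recombination, stood at -1.75 and -2.22 on ND and at 2.14 and 2.23 on HFD (18-fold, adjusted p = 0.00907). Ubd, a ubiquitin-like modifier induced by inflammatory cytokines, stood at -2.14 and -2.40 against 1.42 and 1.37 (12.7-fold, adjusted p = 0.00954). Both had HFD mice that lay within 0.1 of each other and far from either ND mouse. The transporter genes Slc22a29 (-2.00 and -2.14 against 1.84 and 2.17, 16.8-fold) and Slc22a27 (-1.77 and -2.10 against 1.76 and 2.08, 14.4-fold) rose together. They belong to a family of organic ion carriers in which 2 of 13 tested members rose, 0 fell and the median change was 0.11. Of these, 0 passed without HFD replicate 1 of 3 months and 1 without replicate 2. Spink1, a trypsin inhibitor, rose from -2.80 and -3.07 to 0.72 and -0.58, with the HFD mice 1.3 log2 units apart. Apoa4, an apolipoprotein of triglyceride-rich particles, rose from 0.86 and 0.87 to 3.39 and 4.19 (7.59-fold), and was the 1 of 21 apolipoprotein and lipoprotein genes to pass. Some genes were not well above background on either ND array, so their rises are bounds against the lowest bright signal there: Ttc39a was at least 17.9-fold higher on HFD, Stap1, a signalling adaptor, at least 12.4-fold, and Fignl1, a DNA repair ATPase, at least 10.2-fold. Ttc39a and Fignl1 each had 1 other kept probe, higher on HFD by 4.57 and 4.26, and the other probe of Stap1 was too dim to be kept.

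The largest fall among such genes was that of Serpina4-ps1, a serpin pseudogene, from 5.74 and 6.01 on ND to 1.17 and -0.19 on HFD (41.8-fold, adjusted p = 0.00954). The genes that follow it are mostly known from tissues other than liver, and their probes were bright on ND. Pax2, a regulator of kidney development, went from 8.90 and 9.00 to 5.17 and 2.41. Bard1, the partner of the tumour suppressor BRCA1, went from 3.25 and 3.42 to -1.08 and -0.48. Nkd2, an inhibitor of Wnt signalling, went from 6.20 and 6.43 to 2.70 and 2.35. Teddm2 fell by 4.20, Pramel34 by 3.89 and the sperm kinase gene Smok3b by 3.80 on the log2 scale. The other probes of these 6 genes were all too dim to be kept, so each fall rests on 1 measured probe. At 9 months the 6 measured probes were again lower on both HFD mice, on the same slides as at 3 months. Pax2 was then at 8.45 and 9.10 on ND and at 3.19 and 5.57 on HFD, and Bard1 at 3.51 and 3.39 against -1.37 and -2.52. On average the dim probes changed by 0.47 for Pax2, 0.70 for Bard1, 0.38 for Nkd2, 0.41 for Teddm2 and 0.59 for Pramel34. Those of Smok3b averaged -0.29. So the dim probes of Pax2, Bard1, Nkd2, Teddm2 and Pramel34 did not show the fall, though signal this dim cannot decide the question. For Krtap19-5, a hair keratin-associated gene with a change of -4.42, the other probe was lower as well (-1.71). Olfr1350, an olfactory receptor gene (1.73 and 2.01 against -0.88 and -3.47), and Vax2, an eye homeobox gene (5.93 and 6.07 against 1.71 and 3.00), have no other probe. The call of Pax2 ended under quantile normalization, and that of Olfr1350 in a fit of the 4 arrays of 3 months alone. As bounds, Izumo1r, a folate receptor family gene of T cells and eggs, was at least 17.8-fold lower on HFD, Ppargc1b, a coactivator of mitochondrial metabolism, at least 12.9-fold and Hyal6, a hyaluronidase-like gene, at least 11.7-fold. None of these 3 has another probe on the array.

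**Figure D2:**
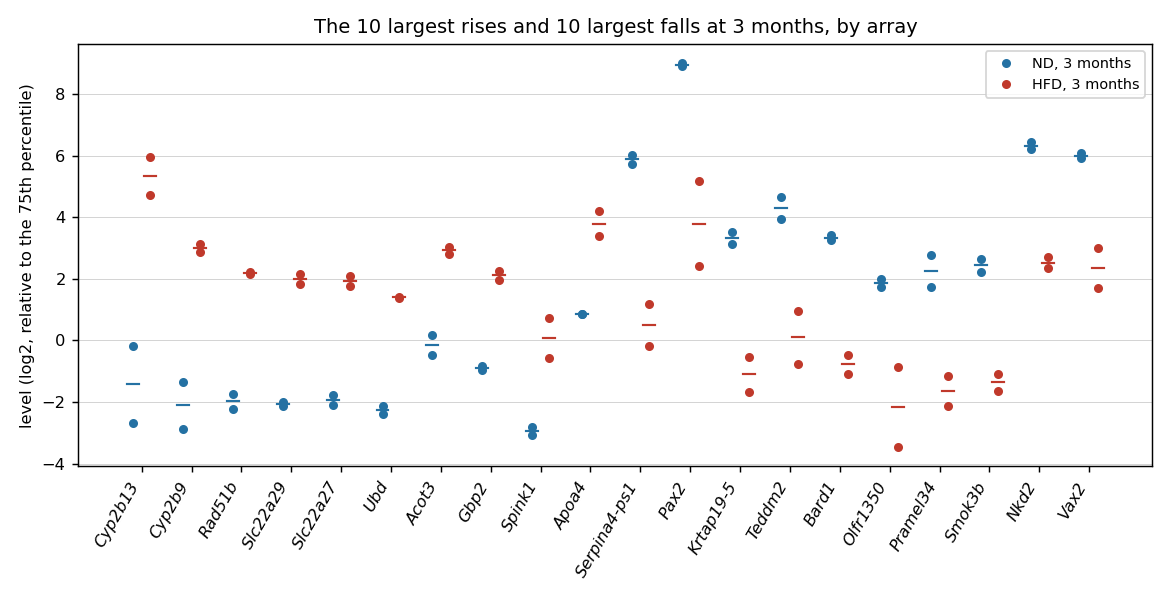
Log2 level relative to the 75th percentile (vertical axis) of the 10 largest rises and 10 largest falls, with 1 point per mouse and a bar at the mean of each group (blue ND, red HFD, 3 months). The groups do not overlap for any gene shown, which the rule for naming requires; the HFD points of Pax2 (5.17 and 2.41) and Olfr1350 (-0.88 and -3.47) lie far apart.

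Genes that differ between the sexes in liver moved in both directions by class. Of 22 genes known to be higher in female liver, 14 were bright enough to test, and 11 were bright on all 4 arrays. Of the 14, 6 rose (42.9%, against 1.9% of all features with a symbol), 1 fell, and the median change was 2.20 against 0.11. A gene dim on ND at 3 months was tested only if another group was bright, which can raise this share and median. Besides Cyp2b13, Cyp2b9, Slc22a27 and the thioesterase genes Acot3 and Acot4, the risers included Hao2, a peroxisomal hydroxy acid oxidase. Hao2 stood at -3.73 and -5.25 on ND, where 1 of 2 arrays measured it well above background, and at 1.51 and 1.74 on HFD (adjusted p = 0.0245). Cyp17a1, a steroid hydroxylase, fell from 4.20 and 4.76 to 0.33 and 1.81 (10.7-fold, adjusted p = 0.0237), and Cyp3a16, another cytochrome P450, was lower on both HFD mice with an adjusted p of 0.0588. The median of the list was 1.30 in the value table of the authors, whose values follow the order of the median signal without background subtraction. Without either HFD mouse of 3 months 0 of the 6 rises passed while the fall of Cyp17a1 did, and without either HFD mouse of 9 months 8 rises passed.

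Of 24 genes known to be higher in male liver 19 were tested: 5 fell (2.13% of features with a symbol did), 0 rose and the median change was -1.67. In all 19 both HFD mice lay below both ND mice, against 26.8% of features with a symbol. C8b, a complement component, fell from 6.51 and 6.67 to 4.89 and 4.69 (-1.80 ± 0.18, adjusted p = 0.00957), and at 3.49-fold it had the smallest p of the list. Elovl3, a fatty acid elongase, fell from 4.71 and 5.24 to 2.64 and 1.47 (adjusted p = 0.0251), and Cyp7b1, an oxysterol hydroxylase, from 6.57 and 6.68 to 4.96 and 4.49 (adjusted p = 0.0271). Cspg5, a proteoglycan gene, fell from -0.95 and -0.78 to -4.03 and -3.74, with 1 of 2 HFD arrays well above background, and the glutathione transferase gene Gstp1 from 8.44 and 8.78 to 6.87 and 6.49, with its other kept probe at -1.97. The largest value belonged to Hsd3b5, a male-specific steroid enzyme, at 7.36 and 7.70 on ND but 4.43 and 1.35 on HFD; with the HFD mice 3.1 log2 units apart its adjusted p was 0.108. The call of Cspg5 ended with normexp background correction (-1.52) and in the value table of the authors (-1.32), and that of Gstp1 under quantile normalization. Without HFD replicate 2 of 3 months 2 of these falls passed.

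Growth hormone acts through its receptor, JAK2 and STAT5 on targets that include Igf1. Igf1, the main endocrine growth factor of liver, fell from 7.51 and 7.50 to 6.13 and 6.32 (-1.28 ± 0.21, adjusted p = 0.0304), and its 3 other probes averaged -0.57. With the mean of all its probes the change was -0.75 and the call ended. Of 14 genes of this pathway tested Igf1 was the 1 to pass. The receptor gene Ghr had a change of -0.30, Stat5b of -0.12 and the feedback inhibitor Socs2 of -0.52, none past the threshold. Among 32 genes of drug-metabolising cytochromes P450 and their receptors 3 rose (Cyp2b13, Cyp2b9 and Nr1i3) and 2 fell. Those were Cyp2c39, from 7.02 and 6.93 to 5.20 and 5.52 (adjusted p = 0.0238), and Cyp2c29, from 8.11 and 8.16 to 7.06 and 6.99 (adjusted p = 0.0359). The latter call ended under quantile normalization. Without either HFD mouse of 3 months 0 of the 3 rises passed. Cyp3a11, the main CYP3A of male liver, was at 9.29 and 9.36 on ND and at 7.76 and 7.09 on HFD with an adjusted p of 0.0725.

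Fatty acid oxidation genes were mostly higher on HFD, and those that passed were peroxisomal or ω-oxidising. Of 18 such genes 4 rose (22.2%, against 1.9% of features with a symbol) and 0 fell (median 0.54). Cyp4a10, a fatty acid ω-hydroxylase and standard PPARα target, rose from 6.48 and 6.11 to 7.70 and 7.57 (2.54-fold, adjusted p = 0.0252), with 2 other probes at an average of 1.03. Its relatives Cyp4a32 (1.06 ± 0.21) and Cyp4a31 (1.03 ± 0.21) rose by similar amounts, and the probes of these near-identical genes may share signal. Abcd2, a peroxisomal importer of fatty acyl-CoA, rose from -3.15 and -3.19 to -0.86 and -0.28 (adjusted p = 0.0424), though the call ended under quantile normalization. By contrast Cyp4a12a, a male-biased member of the family, was at 5.75 and 5.32 on ND and at 4.66 and 2.99 on HFD (adjusted p = 0.108). With the mean of all probes of each gene the calls of Cyp4a10 and Cyp4a31 ended, and 2 of the 18 passed. The count was 7 under quantile normalization and 9 in the value table of the authors, and 0 without either HFD mouse of 3 months.

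In the mitochondria 0 of 22 oxidation and ketogenesis genes passed, and 1 did not overlap downward, while in 19 both HFD mice lay above both ND mice (43.5% of features with a symbol did so). The median change was 0.53. Cpt1a, which admits fatty acids into mitochondria, had levels of 5.50 and 5.27 on ND and 6.55 and 6.84 on HFD (1.31 ± 0.29, adjusted p = 0.0545). Hadhb, a subunit of the trifunctional protein, had 6.11 and 6.00 against 6.83 and 6.92 (adjusted p = 0.0547). The hormone gene Fgf21, another PPARα target, had the largest value, at -2.44 and -1.28 on ND and 0.52 and 0.93 on HFD (2.59 ± 0.59, adjusted p = 0.0598). The receptor gene Ppara itself had a change of 0.44 ± 0.19 (adjusted p = 0.203). Acyl-CoA thioesterases release free fatty acid from CoA. Of 11 tested, 0 fell (median 0.58) and 3 rose (27.3%, against 1.9% of features with a symbol). They were Acot3 (0.17 and -0.47 to 3.04 and 2.82, 8.43-fold), Acot2 (-1.85 and -2.31 to -0.19 and 0.67, 4.99-fold) and Acot4 (1.73 and 1.52 to 3.56 and 3.98, 4.42-fold). A second probe of Acot3 was 3.99 higher on HFD. Without either HFD mouse of 3 months 0 of the 3 passed.

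Uptake and storage genes gave few calls. Vldlr, a lipoprotein receptor, rose from 0.66 and 0.01 to 2.12 and 2.47 (1.96 ± 0.35, adjusted p = 0.0336), the 1 of 16 uptake genes to pass. Gpat3, which catalyses the first step of glycerolipid synthesis, rose from 1.40 and 0.61 to 3.02 and 2.89 (1.95 ± 0.28, adjusted p = 0.0224), the 1 of 13 triglyceride synthesis genes to pass. The calls of Vldlr and Gpat3 ended without either HFD mouse of 3 months. Of 17 lipid droplet genes 0 passed, with a median of 0.53. Among them Plin4, a droplet coat protein, had values of 0.69 and 0.14 on ND and 2.88 and 2.34 on HFD (adjusted p = 0.0669), and Cidea had -1.70 and -0.88 against 1.49 and 1.62 (2.84 ± 1.27, adjusted p = 0.215). Plin2, the main droplet coat of liver, had a change of 0.79 ± 0.30 and the scavenger receptor gene Cd36 one of 1.59 ± 0.48. Pparg, the adipogenic receptor, did not part the diets (3.64 and 3.71 on ND, 3.48 and 3.65 on HFD, -0.11 ± 0.17).

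Several fatty acid synthesis genes differed more between the HFD mice than between the diets. Fasn, fatty acid synthase, was at 2.22 on both ND arrays and at 0.97 and 4.25 on the HFD arrays. Scd1, the main desaturase, was at 7.91 and 7.75 on ND and at 6.51 and 8.27 on HFD, and Acaca, the carboxylase that feeds Fasn, at 4.67 and 4.55 against 4.02 and 5.10. In each, HFD replicate 1 lay below and replicate 2 above both ND mice. Of 18 fatty acid synthesis genes 0 passed, 7 were higher and 1 was lower on both HFD mice than on both ND mice, with a median of 0.34 that became -0.30 without HFD replicate 2 and 1.09 without HFD replicate 1. Srebf1, which encodes their activator SREBP-1, did not overlap between diets (2.89 and 2.15 against 3.25 and 3.49, adjusted p = 0.119). Cholesterol synthesis had a like split: 0 of 24 genes passed, the median was -0.53 and it became 0.10 without HFD replicate 1 and -1.13 without replicate 2. Mvk, mevalonate kinase, was at 4.42 and 5.18 on ND and at 3.61 and 3.75 on HFD (adjusted p = 0.0801), with both HFD mice below both ND mice. Cyp7a1, the rate-limiting enzyme of bile acid synthesis, varied within both diets (1.62 and 2.85 on ND, 1.22 and 3.14 on HFD), and of 21 bile acid genes Cyp7b1 alone passed.

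**Figure D3:**
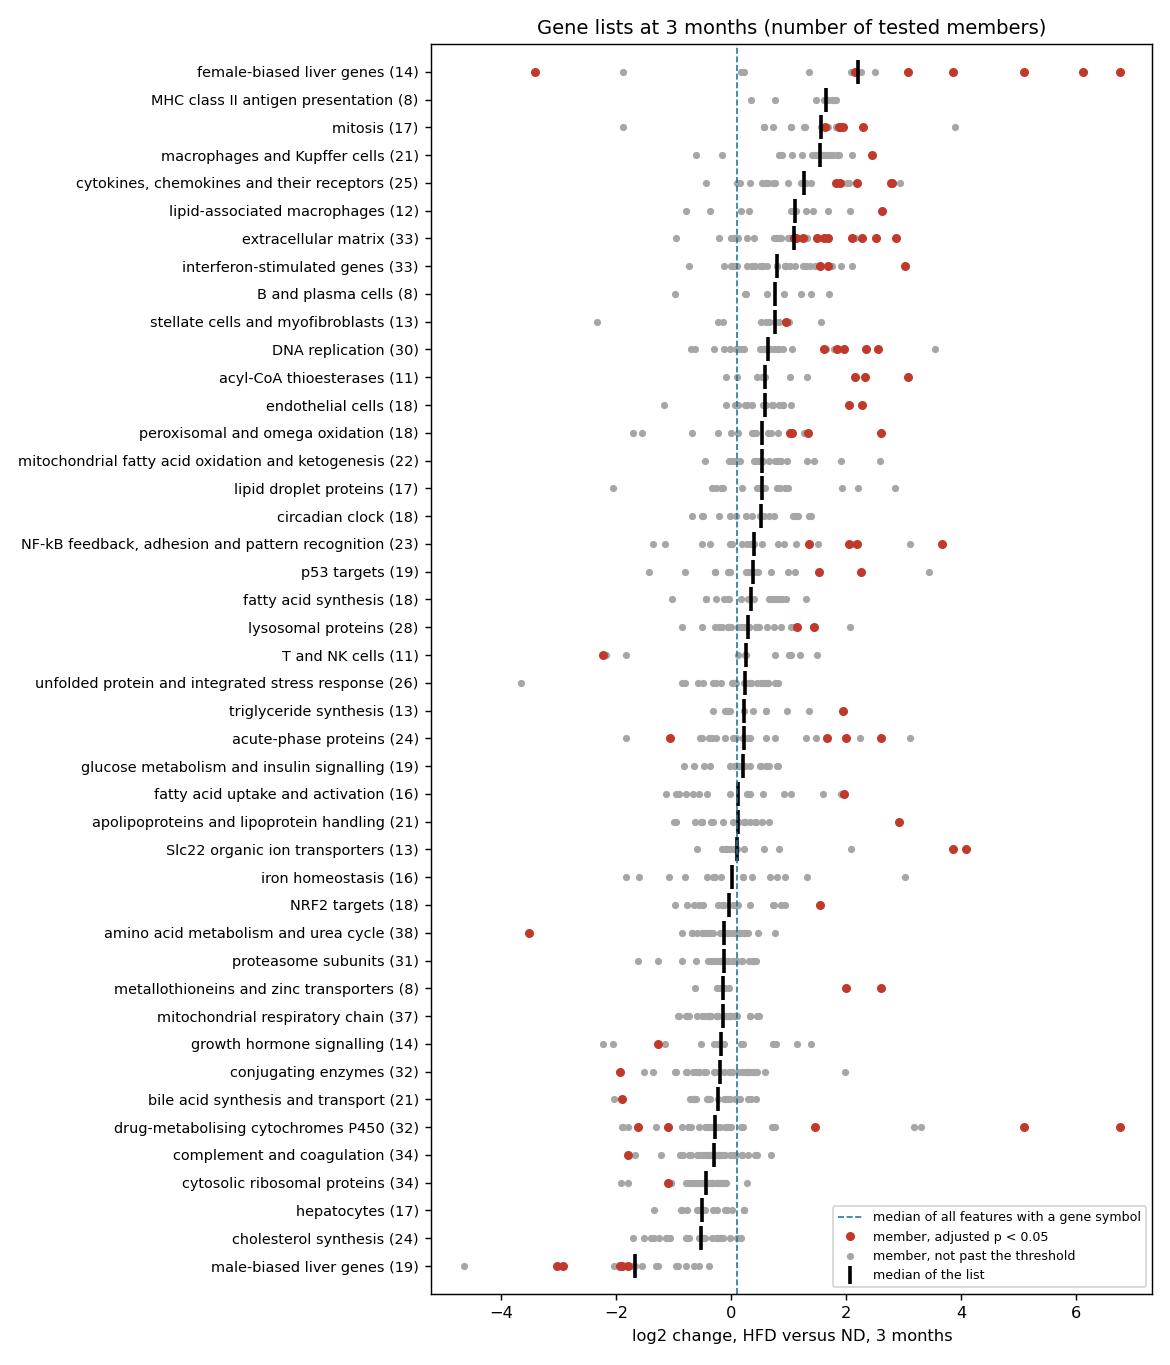
Log2 change at 3 months (HFD minus ND, horizontal axis) of every tested member of the gene lists with 8 or more such members, 1 row per list ordered by its median (black bar); red points passed the test and the dashed line is the median of all features with a symbol (0.11). Female-biased genes stand highest (median 2.20) and male-biased genes lowest (-1.67).

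Genes of inflammation were mostly higher on HFD. Of 25 cytokine, chemokine and receptor genes tested, of 39 listed, 5 rose (20%, against 1.9% of features with a symbol) and 0 fell. The median change was 1.27, and 19 of the 25 were bright on all 4 arrays. Cxcl9, an attractant of T cells, rose from -0.04 and 0.30 to 2.32 and 2.34 (4.58-fold, adjusted p = 0.0152). Cxcl10, which acts on the same receptor, rose from -0.24 and -0.02 to 3.07 and 2.26 (6.92-fold, adjusted p = 0.0226). Ccl24, an attractant of eosinophils, rose from -1.06 and -1.51 to 0.36 and 0.70, and Cx3cr1, the fractalkine receptor of monocytes, from -3.25 and -3.03 to -1.53 and -0.97. Ccl4, a macrophage chemokine, was well above background on neither ND array and at least 2.75-fold higher on HFD. Ccl2, the main monocyte attractant, had levels of -2.83 and -2.70 on ND and 0.45 and -0.10 on HFD, but its adjusted p was 0.0846. The median of the list was 0.76 with normexp correction and 0.51 in the value table of the authors, and the call of Cx3cr1 ended under quantile normalization. Without HFD replicate 1 of 3 months 1 of the 25 passed, and without replicate 2 there were 3. Tnf, Il6 and Il1a were too dim to be tested.

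Of 23 NF-κB target, adhesion and pattern recognition genes 4 rose (17.4%, against 1.9% of features with a symbol) and 0 fell (median 0.40). Of the 23, 17 were bright on all 4 arrays, and the filter on dim probes can raise this share and the median. Tnfaip3, which encodes the NF-κB brake A20, rose from -2.16 and -2.15 to 0.08 and -0.03 (2.18 ± 0.20, adjusted p = 0.00877), and with Ubd it led the list. Vcam1, an adhesion molecule of leukocyte entry, rose from -0.58 and -0.37 to 1.33 and 1.81 (adjusted p = 0.033). Icam1, its relative, was at least 2.11-fold higher, a call that ended under quantile normalization, with normexp correction and in the value table of the authors. Without either HFD mouse of 3 months 2 of the 4 passed. The transcription factor genes Nfkb1 and Nfkb2 had changes of -0.37 and 0.37, neither past the threshold. Lcn2, an iron-binding acute-phase protein, was at 0.81 and 0.25 on ND and 4.02 and 3.24 on HFD with an adjusted p of 0.111.

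Interferon-stimulated genes had 3 of 33 members that rose (9.09%, against 1.9% of features with a symbol) and 0 that fell (median 0.80). Gbp2, an interferon-inducible GTPase, rose from -0.97 and -0.83 to 2.27 and 1.98 (8.11-fold, adjusted p = 0.0148), its relative Gbp5 from -3.22 and -3.00 to -1.55 and -1.58, and the antiviral gene Oasl2 from -1.34 and -1.39 to 0.50 and 0.16. The latter 2 calls ended under quantile normalization. Without HFD replicate 1 of 3 months 0 of the 3 passed, and without replicate 2 there was 1. All 8 MHC class II genes tested had positive changes, yet 0 passed (median 1.65). In 7 of the 8 both HFD mice lay above both ND mice, against 43.5% of features with a symbol. Of the 8, 6 were bright on all 4 arrays, and the filter on dim probes can raise this share and the median. H2-Eb1, a class II β chain, was at 2.78 and 2.34 on ND and at 4.20 and 4.56 on HFD (1.82 ± 0.49, adjusted p = 0.0829). Start regions are shown for Cxcl10 and Gbp2, which stand for the chemokine and the interferon genes that rose (GRCm38.p6, chr5:92348840-92349139, minus strand, and chr3:142620413-142620712, plus strand). Capitals mark a κB motif in Cxcl10 and an interferon-stimulated response element in Gbp2, both searched on either strand. The κB motif was searched as GGG followed after any 2 bases by TTTCC or TTCCC. The interferon-stimulated response element was searched as GAAA repeated after any 2 bases. Cxcl10 also holds 1 match to the latter, with its first base at -213 from the start, which is left in lower case.
Cxcl10: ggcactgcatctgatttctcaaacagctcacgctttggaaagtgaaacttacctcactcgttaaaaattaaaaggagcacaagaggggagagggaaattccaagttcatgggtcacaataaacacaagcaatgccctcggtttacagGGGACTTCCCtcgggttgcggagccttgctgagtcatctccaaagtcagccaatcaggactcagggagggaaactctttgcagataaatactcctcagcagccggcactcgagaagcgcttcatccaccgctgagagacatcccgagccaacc
Gbp2: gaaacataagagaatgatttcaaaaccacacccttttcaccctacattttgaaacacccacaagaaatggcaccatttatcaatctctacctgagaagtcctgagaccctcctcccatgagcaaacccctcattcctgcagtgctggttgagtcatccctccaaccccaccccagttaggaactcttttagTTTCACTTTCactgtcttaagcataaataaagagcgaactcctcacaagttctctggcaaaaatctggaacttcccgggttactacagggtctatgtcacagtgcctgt
The κB letters occur in 3.24% of 32851 RefSeq windows of this length and the interferon letters in 3.44%. These shares are per window, whereas the counts that follow are per gene. A gene with several windows counts if any of them holds the letters, so the measures are unlike. The κB letters were found in 2 of 3 called cytokine genes with a window and in 6 of 19 tested ones, and in 2 of 3 called NF-κB genes and 7 of 17 tested ones. The window of Icam1 does not hold them. The interferon letters were found in 2 of 3 called interferon-stimulated genes and in 15 of 25 tested ones.

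Markers of immune cells are given beside these genes. In whole liver a change in the number of cells of a type and one in RNA per cell cannot be told apart. Of 21 macrophage and Kupffer cell markers tested 19 had positive changes, but 1 passed (median 1.54). In 19 of the 21 both HFD mice lay above both ND mice, against 43.5% of features with a symbol. Of the 21, 17 were bright on all 4 arrays, and the filter on dim probes can raise this share and the median. The summed level of the 21 markers was 6.69 and 6.36 on ND and 7.51 and 7.24 on HFD. Itgax, a marker of inflammatory macrophages, rose from -3.41 and -4.02, with 1 of 2 ND arrays well above background, to -1.63 and -0.91. Clec4f, which defines Kupffer cells, was at 2.60 and 1.83 on ND and 3.76 and 3.48 on HFD (adjusted p = 0.128), while Csf1r, the growth factor receptor of the lineage, was at 5.09 and 5.21 against 5.18 and 4.79. Of 12 markers of lipid-associated macrophages 1 rose, Trem2, a lipid-sensing receptor, from -2.94 and -2.87 to -0.10 and -0.47 (2.62 ± 0.34, adjusted p = 0.018). The summed level of this list was 7.85 and 7.67 on ND and 8.02 and 8.08 on HFD. The call of Itgax ended under quantile normalization and that of Trem2 in the value table of the authors (1.24). Both calls ended without HFD replicate 1 of 3 months. The part of cell numbers in the changes of inflammation genes was not tested.

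Of 11 T and NK cell markers tested, of 22 listed, 1 fell and 0 rose. In 7 both HFD mice lay above both ND mice and in 3 below, with a median change of 0.27. Of features with a symbol 43.5% lay above in this way and 26.8% below. Cd4 fell from 7.29 and 7.78 to 4.88 and 5.73 (-2.24 ± 0.35, adjusted p = 0.0272), and its other probe was too dim to be kept. This call ended without HFD replicate 1 of 3 months. Cd3e had levels of 2.23 and 2.42 on ND and 0.01 and 0.30 on HFD (adjusted p = 0.0644), whereas Cd3d, a subunit of the same receptor, had a change of 1.04 (well above background on 1 of 2 ND arrays) and the adhesion receptor gene Cd2 one of 1.49, neither past the threshold. Cd8a, Cd3g and Ncr1 were too dim to be tested. The summed level of the list, in which the Cd4 probe weighs most, was 7.49 and 7.94 on ND and 5.72 and 6.29 on HFD. Of 8 B and plasma cell markers tested 0 passed, 7 had positive changes and the median was 0.77. Of 4 dendritic cell markers tested 1 fell, while the other 3, Flt3, Clec9a and Batf3, were higher on both HFD mice (0.86, 0.98 and 1.16) without passing. The fall was that of Siglech, a marker of plasmacytoid dendritic cells, from 7.33 and 7.29 to 4.58 and 4.95, but its other probe was 2.65 higher on HFD, and the mean of its probes was at 0.05. Elane, neutrophil elastase, was at 4.55 and 5.08 on ND and at 0.20 and 2.58 on HFD (adjusted p = 0.0523), while S100a8, another neutrophil gene, had a change of 1.28.

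Matrix genes gave the longest set of calls among the lists. Of 33 tested 10 rose (30.3%, against 1.9% of features with a symbol), 0 fell and the median change was 1.08. Of the 33, 29 were bright on all 4 arrays. Col1a1, the main fibrillar collagen chain of scar, rose from -1.35 and -0.91 to 1.58 and 1.87 (7.25-fold, adjusted p = 0.0189). Col3a1, its partner in fibrils, rose from 0.31 and 0.62 to 2.58 and 2.54 (4.28-fold), and Col1a2 from 1.43 and 1.76 to 3.11 and 3.45 (3.21-fold). The basement membrane chains rose too, Col4a1 from -1.21 and -0.80 to 0.64 and 0.59 and Col4a2 from -0.51 and -0.42 to 0.78 and 0.56 (adjusted p = 0.0247). Anxa2, a membrane-binding protein, rose from 2.31 and 2.40 to 4.66 and 4.59, and Col6a1, Tgfbi and Col5a1 rose 2.82-fold, 2.39-fold and 2.14-fold. Timp1, an inhibitor of matrix proteases, was well above background on neither ND array and at least 4.89-fold higher on HFD, a call that ended under quantile normalization, with normexp correction and in the value table of the authors. The median of the list was 0.69 in that table, and without either HFD mouse 1 of the 33 passed.

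Markers of the cells that make matrix moved less. Of 13 stellate cell and myofibroblast markers 1 rose, Pdgfra, from -2.00 and -1.80 to -0.98 and -0.93 (adjusted p = 0.0499), a call that ended without HFD replicate 1 of 3 months, under quantile normalization, with normexp correction, with the mean of all probes and in the value table of the authors. The median of the list was 0.75, but its summed level was 6.80 and 6.72 on ND and 6.41 and 6.54 on HFD. Acta2, smooth muscle actin and a mark of activated stellate cells, was at -1.80 and -1.95 on ND and -1.71 and -0.82 on HFD (0.61 ± 0.39), and Tagln, another contractile gene, at 5.43 and 4.98 against 2.30 and 3.43 (-2.34 ± 0.56, adjusted p = 0.0666). Of 18 endothelial markers 2 rose (median 0.58, summed level 6.02 and 6.36 on ND, 6.51 and 6.40 on HFD). Lyve1, a marker of sinusoidal and lymphatic endothelium, rose from -1.89 and -1.49 to 0.58 and 0.61, and Emcn was at least 1.80-fold higher, a call that ended under quantile normalization and in the value table of the authors. Without either HFD mouse of 3 months 0 of the 18 passed. Kdr, the main VEGF receptor, had a change of -1.17 that did not pass. Whether these cells bear on the collagen values was not tested.

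**Figure D4:**
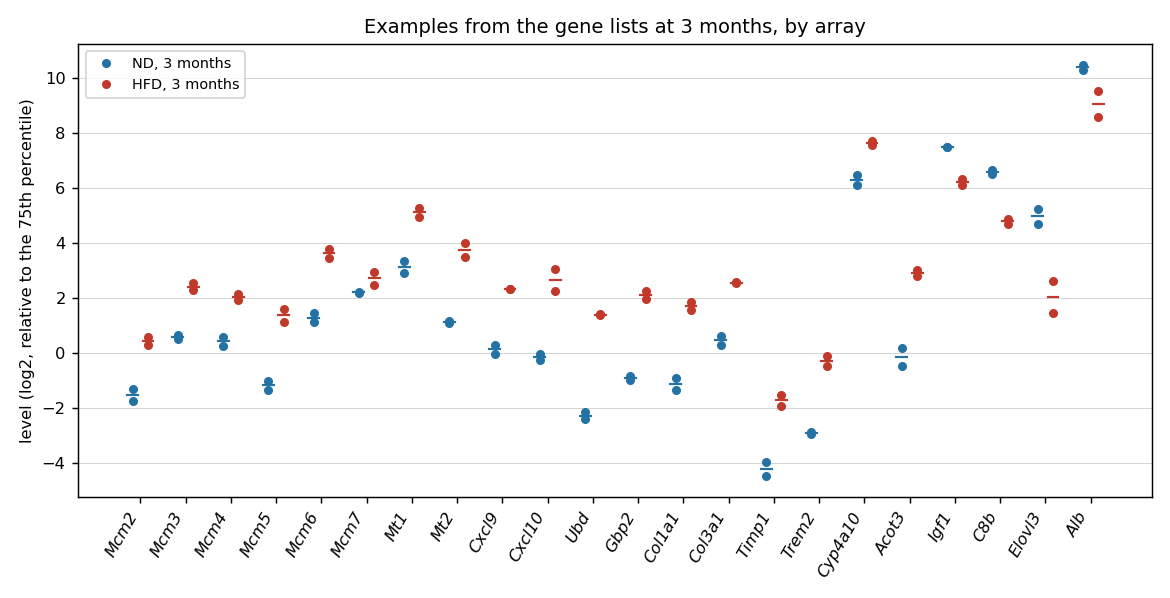
Log2 level relative to the 75th percentile (vertical axis) of examples from the gene lists, with 1 point per mouse and a bar at each group mean (blue ND, red HFD, 3 months). Mcm2 to Mcm6 lie apart between diets while Mcm7 (2.22 and 2.19 on ND, 2.95 and 2.48 on HFD) does not pass the test; Igf1, C8b and Elovl3 are lower on HFD.

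The listed replication genes that rose all encode parts of 1 complex. The MCM2-7 proteins form the ring-shaped helicase that opens DNA at origins, and 5 of its 6 genes passed. They are also the 5 of 30 tested replication genes that rose (16.7%, against 1.9% of features with a symbol). Among the 30, 0 fell and the median was 0.64. Pole2, a DNA polymerase subunit gene not among these 5, was well above background on neither ND array. It was at least 2.49-fold higher on HFD (adjusted p = 0.00736). Mcm6 went from 1.44 and 1.12 to 3.79 and 3.46 (5.07-fold, adjusted p = 0.00853). Mcm5 went from -1.01 and -1.34 to 1.59 and 1.15 (5.84-fold), Mcm3 from 0.66 and 0.51 to 2.55 and 2.29 (3.57-fold), Mcm2 from -1.30 and -1.74 to 0.59 and 0.29 (3.9-fold) and Mcm4 from 0.59 and 0.27 to 2.16 and 1.94 (3.07-fold). Mcm7 had a change of 0.51 ± 0.24 (adjusted p = 0.239). Among the other 24 listed genes that were tested the values varied and none passed: Uhrf1, which couples DNA methylation to replication, had a change of 3.55 ± 0.87 (adjusted p = 0.0684), Pcna, the sliding clamp, of 0.64, and Cdc45, which joins MCM to form the active helicase, of -0.63. Without HFD replicate 1 of 3 months 3 of the 5 passed, and 8 replication genes did with normexp correction. The start regions of 3 MCM genes are shown since E2F factors are known to drive these genes at the onset of S phase (GRCm38.p6; Mcm6 chr1:128359656-128359955, minus strand; Mcm5 chr8:75109259-75109558, plus strand; Mcm2 chr6:88898731-88899030, minus strand). Capitals mark E2F motifs, searched as TTTCCCGC, TTTGGCGC, TTTCGCGC or TTTGCCGC on either strand, where overlapping matches merge into 1 run.
Mcm6: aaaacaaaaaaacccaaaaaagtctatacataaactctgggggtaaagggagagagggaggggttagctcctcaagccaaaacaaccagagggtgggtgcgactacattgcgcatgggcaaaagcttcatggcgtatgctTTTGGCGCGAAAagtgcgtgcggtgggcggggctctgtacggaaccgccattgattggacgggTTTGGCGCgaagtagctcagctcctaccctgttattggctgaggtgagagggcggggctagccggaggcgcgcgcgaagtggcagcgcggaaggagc
Mcm5: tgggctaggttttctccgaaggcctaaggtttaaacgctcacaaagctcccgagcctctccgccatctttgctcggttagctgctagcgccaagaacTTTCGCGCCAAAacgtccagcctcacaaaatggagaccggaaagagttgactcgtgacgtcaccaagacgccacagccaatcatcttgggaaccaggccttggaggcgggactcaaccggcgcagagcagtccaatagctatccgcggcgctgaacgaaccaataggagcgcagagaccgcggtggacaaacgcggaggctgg
Mcm2: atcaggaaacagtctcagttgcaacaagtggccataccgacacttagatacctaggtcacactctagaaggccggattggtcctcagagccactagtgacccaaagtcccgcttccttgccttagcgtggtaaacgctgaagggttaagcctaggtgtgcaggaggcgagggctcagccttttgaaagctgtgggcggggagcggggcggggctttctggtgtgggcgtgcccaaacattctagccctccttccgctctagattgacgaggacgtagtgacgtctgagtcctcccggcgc
The letters match 3 times in Mcm6, 2 times in Mcm5 and not in Mcm2, and 2.26% of all 32851 windows hold a match. Of the 4 risers with a window here 3 hold one, and of 27 tested replication genes with a window 9 do. These counts are per gene, over any of its windows, while the 2.26% is per window. No match says only that these letters are not in the window of Mcm2.

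Mitosis genes rose in 5 of 17 tested members (29.4%, against 1.9% of features with a symbol) and fell in 0 (median 1.57). Cdc20, an activator of the anaphase-promoting complex, rose from -1.74 and -1.42 to 0.28 and -0.17 (1.63 ± 0.24, adjusted p = 0.0234), and Aurka, a spindle kinase, from -2.00 and -2.11 to 0.20 and -0.51. Prc1, a midzone protein, and Ccna2, cyclin A2, were well above background on 1 of 2 ND arrays and had changes of 2.28 and 1.87, and Cenpe, a kinetochore motor, was at least 3.12-fold higher. Mki67, the usual proliferation marker, was at -2.78 and -2.69 on ND and -0.94 and -1.18 on HFD (1.67 ± 0.48, adjusted p = 0.0939). Only 10 of the 17 were bright on all 4 arrays, and 8 listed members, Top2a and Bub1 among them, were too dim to be tested. The median was 0.92 with normexp correction and 0.73 in the value table of the authors, where the call of Cenpe also ended, and with probes bright on all 8 arrays 1 mitosis gene passed. Without HFD replicate 1 of 3 months 1 passed, and without replicate 2 there were 3. Among p53 targets 2 of 19 rose: Cdkn1a, the cell cycle inhibitor p21, from -3.30 and -3.07 to -0.90 and -0.96 (2.25 ± 0.33, adjusted p = 0.0237; its other probe was too dim to be kept), and Phlda3, a repressor of Akt, from -0.86 and -0.69 to 0.66 and 0.85. Gadd45a, another target, had a change of -1.42 and Mdm2 of -0.28, neither past the threshold. In the value table of the authors the call of Cdkn1a ended (1.08), and without either HFD mouse of 3 months 1 of the 2 passed.

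Metallothioneins bind zinc and copper and respond to metals, glucocorticoids and cytokines. Mt2 rose from 1.11 and 1.17 to 3.99 and 3.49 (6.07-fold, adjusted p = 0.0142) and Mt1 from 2.90 and 3.35 to 5.29 and 4.97 (4-fold, adjusted p = 0.031). The other 6 genes of metal handling in the list, among them the sensor gene Mtf1 (-0.16) and the zinc exporter gene Slc30a1 (-0.63), did not pass. The start regions of both genes are shown with the core of the metal response element, to which MTF-1 binds, in capitals (GRCm38.p6, chr8:94172368-94172667 for Mt2 and chr8:94178839-94179138 for Mt1, plus strand). It was searched as TGCGCNC or TGCACNC on either strand.
Mt2: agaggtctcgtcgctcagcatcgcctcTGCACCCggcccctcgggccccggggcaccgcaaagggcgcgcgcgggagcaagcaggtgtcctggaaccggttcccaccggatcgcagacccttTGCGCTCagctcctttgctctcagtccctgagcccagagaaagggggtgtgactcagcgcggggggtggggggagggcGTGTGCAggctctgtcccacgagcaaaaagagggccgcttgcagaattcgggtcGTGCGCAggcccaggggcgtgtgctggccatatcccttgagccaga
Mt1: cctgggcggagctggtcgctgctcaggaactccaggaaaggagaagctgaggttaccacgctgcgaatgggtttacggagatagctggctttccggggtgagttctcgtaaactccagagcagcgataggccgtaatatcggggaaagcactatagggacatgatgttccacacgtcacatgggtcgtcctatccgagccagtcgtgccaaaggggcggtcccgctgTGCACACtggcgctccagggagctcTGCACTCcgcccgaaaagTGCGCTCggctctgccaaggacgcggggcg
Mt2 holds 4 matches and Mt1 holds 3. The core is short, so 25.7% of all windows hold a match and 7.11% hold 2 or more. Acute-phase genes, which include the metallothioneins, rose in 3 of 24 and fell in 1, and without either HFD mouse of 3 months 1 rise passed. Serpina3n, a cytokine-induced antiprotease, rose from 3.49 and 3.24 to 5.10 and 4.98 (adjusted p = 0.0419), while its relative Serpina3k fell from 9.88 and 10.15 to 9.02 and 8.88, a call that ended under quantile normalization (-0.54) and in the value table of the authors (-0.56). The serum amyloid genes did not pass. Saa2 was at 4.65 and 4.24 on ND and 6.95 and 6.41 on HFD, with an SE of 1.47 (adjusted p = 0.37). That SE draws on all 8 arrays, not on the 3-month mice alone. Its relative Saa1 was at 9.89 and 5.03 on ND at 9 months. At 3 months Saa1 was at 5.03 and 4.58 on ND and at 6.68 and 5.55 on HFD. Hamp, the iron hormone hepcidin, was at 8.41 and 8.15 against 6.14 and 6.78, with an SE of 2.42 from the same fit of all 8 arrays. Of 16 iron genes 0 passed.

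Several other programmes gave few calls or none. Csad, which makes the taurine precursor hypotaurine, fell from 5.87 and 6.73 to 2.70 and 2.89 (11.4-fold, adjusted p = 0.0231), and was the 1 of 38 amino acid and urea cycle genes to pass. The carbonyl reductase gene Cbr3 rose from -1.13 and -1.15 to 0.31 and 0.49, the 1 of 18 NRF2 targets. The calls of Csad and Cbr3 ended without either HFD mouse of 3 months. Hexa, which encodes a lysosomal enzyme of ganglioside breakdown, rose from 3.20 and 3.25 to 4.58 and 4.17. Rpl4 fell from 7.39 and 7.45 to 6.23 and 6.41, the 1 of 34 cytosolic ribosomal protein genes to pass. Of the 34, 27 were lower on both HFD mice than on both ND mice, against 26.8% of features with a symbol. The median change of the 34 was -0.44. That shift shrank to -0.12 under quantile normalization, where the call of Rpl4 ended, and to -0.10 in the value table of the authors. Hepatocyte markers had 0 of 17 past the threshold and a median of -0.51, which turned to 0.02 under quantile normalization and 0.01 in the table of the authors. Their summed level was 13.26 and 13.39 on ND and 12.87 and 12.82 on HFD. None of 19 glucose and insulin genes, 26 unfolded protein response genes, 18 clock genes, 37 respiratory chain genes or 31 proteasome genes passed in either direction by limma. Pck1 (7.90 and 7.89 against 8.02 and 8.17), the gatekeeper of gluconeogenesis, and Xbp1, a regulator of the unfolded protein response (change of -0.32), are examples.

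After 9 months on the same diets 1670 features passed (8.28%), 717 higher and 953 lower, and among features with a symbol 4.4% were called higher and 3% lower. The 2 comparisons share no mouse, but they share the slides and the estimate of error, and both slides held the shorter feeding time in their first row and the longer one in their second, which means that time and row cannot be told apart. Of the 305 features higher at 3 months 285 had a positive change at 9 months and 166 passed again, and of the 740 lower ones 724 had a negative change and 437 passed again. Tested over all features, the difference of the diet changes between 3 and 9 months passed for 0 of 20164 features (0%) by limma, with 1537 at an unadjusted p under 0.05 and a smallest adjusted p of 0.146. Under quantile normalization and with probes bright on all 8 arrays 1 feature passed, and without HFD 9 months replicate 1 there were 3.

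The features called in opposite directions at the 2 times were 3 genes of fatty acid ω-hydroxylation. Cyp4a10 changed by 1.34 at 3 months and by -1.05 at 9 months (difference 2.39 ± 0.29, adjusted p = 0.228), Cyp4a31 by 1.03 and -1.44, and Cyp4a32 by 1.06 and -1.77. The level of Cyp4a10 on HFD was 7.70 and 7.57 at 3 months and 8.27 and 8.11 at 9 months. On ND it was 6.48 and 6.11 at 3 months and 9.33 and 9.14 at 9 months, so the ND level moved more between the times than the HFD level. Mt2 also had changes of opposite sign, 2.60 at 3 months and -1.12 at 9 months, but the latter did not pass (adjusted p = 0.0687). The difference was 3.72 ± 0.42 (adjusted p = 0.228). On ND Mt2 went from 1.11 and 1.17 to 8.71 and 8.01, and on HFD from 3.99 and 3.49 to 7.13 and 7.34. Mt1 changed by 2.00 and -1.08, and its 9-month change did not pass either (adjusted p = 0.0988).

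Some diet changes passed at 3 months and were near 0 at 9 months, which need not mean a lower level on HFD. Cdkn1a changed by 2.25 and 0.06 (difference 2.20 ± 0.47, adjusted p = 0.404), Gpat3 by 1.95 and 0.01, Acot4 by 2.14 and 0.09 and Col4a2 by 1.13 and 0.11. Others were larger in value at 9 months: Trem2 changed by 2.62 and 4.41 (difference -1.79 ± 0.48, adjusted p = 0.494), Ubd by 3.67 and 4.96, and Srebf1, not called at 3 months, by 0.85 and 2.75. Pparg changed by -0.11 and 1.40 (difference -1.50 ± 0.23, adjusted p = 0.271). None of these differences passed, so a difference between the feeding times was not shown for any of them. By group means from 3 to 9 months on ND, Cdkn1a went from -3.18 to 0.88, Gpat3 from 1.01 to 3.50, Acot4 from 1.63 to 2.88 and Col4a2 from -0.46 to -0.08. On HFD they went from -0.93 to 0.93, 2.96 to 3.51, 3.77 to 2.97 and 0.67 to 0.03. Trem2, Ubd, Srebf1 and Pparg on ND went from -2.91 to -2.13, -2.27 to -2.69, 2.52 to -1.86 and 3.67 to 2.15. On HFD they went from -0.29 to 2.28, 1.40 to 2.27, 3.37 to 0.89 and 3.57 to 3.54. Col1a1 (2.86 and 3.34), Cxcl10 (2.79 and 2.22), Slc22a29 (4.07 and 3.57) and Cyp2b13 (6.75 and 6.97) had diet changes within 0.6 of each other at both times.

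**Figure D5:**
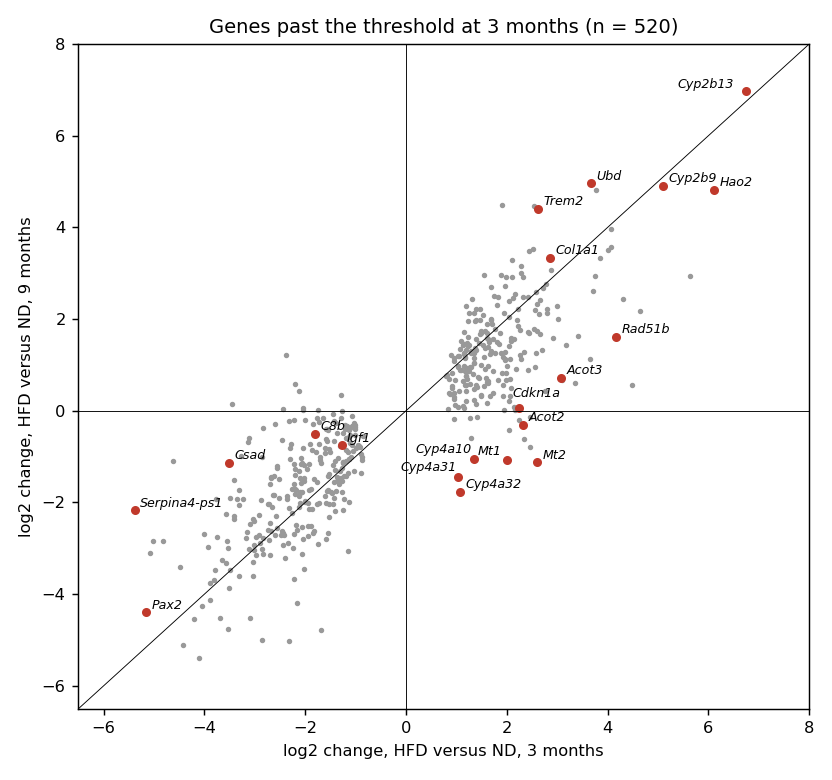
Log2 change on HFD at 9 months (vertical axis) against that at 3 months (horizontal axis) for the 520 genes with a symbol that passed at 3 months; the diagonal marks equal changes and named genes are red. Most points lie in the quadrants of equal sign. Mt1, Mt2, Acot2 and 3 Cyp4a genes are among those above 0 at 3 months and below 0 at 9 months.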

How the data were processed

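Whole-liver RNA of 8 male mice was measured on 1-colour Agilent arrays, 1 mouse per array. Per the file headers, the deposited scanner files hold spot intensity from Feature Extraction 10.7.1.1, with the background-subtracted processed signal, median signals and flags for saturation and for signal well above background. The authors' value table holds log2 values that follow, on each array, the order of the median signal without background subtraction. Its column medians are near 7.14. How its background was treated and how it was centred are not stated in the sources used here.

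Control spots were left out, spots of a probe were averaged, and the processed intensity was taken as log2 minus the 75th percentile of each array, with no pseudocount (0). Probes were kept if some group had both of its arrays flagged as well above background, which left 25800 probes, and the brightest kept probe stood for each of 20164 features. Symbols came from the accessions of the array design through a RefSeq table (GRCm38.p6). Group means of all 8 arrays were fitted with limma 3.58.1 in R 4.3.3 (lmFit and eBayes, Benjamini-Hochberg adjusted p under 0.05). P-values measure the spread between mice as the labels number them, and 2 arrays per group limit the precision.

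Where no array of a group had a probe well above background, the fold is a bound: the mean of the bright group over the higher of the dim signal and the lowest bright signal, per array. Summed marker levels are log2 of the sum over tested members. Genes named are the 10 largest changes each way that were bright in both groups and did not overlap, 3 bounds each way, the leading members of each of 51 lists by adjusted p, and a panel of 30 genes. Some of these genes are not reported here. Others in the text were taken from the lists after their values were seen. The members and lists were chosen with earlier results of these data known. The replicate numbers did not pair the mice (correlation of deviations 0.0126 between ND and HFD at 3 months). Alternatives were 9 other settings and leaving out each array in turn. The fit was tested on simulated data before use.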

Additional observations from a re-analysis of the deposited data

How the results depend on the processing

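The count of 1045 features (305 higher, 740 lower) was within 1.5 times of itself under quantile normalization, normexp correction, the authors' value table, probes bright on all 8 arrays and the mean of all kept probes. It was 68 (13 higher, 55 lower) with no filter on dim probes, 2780 (1162 and 1618) with the 4 arrays of 3 months alone and 3972 (1551 and 2421) with array weights. Leaving out each array in turn gave 0 to 2232 features, 0 to 752 of them higher and 0 to 1480 lower. The lone mouse left in a group was then assumed to vary like the other groups. With the replicate number as a block 803 features passed (213 higher, 590 lower), but the numbers gave no sign of pairing. No slide block could be fitted, since each diet lay on its own slide. The difference between 3 and 9 months passed for 1 feature under quantile normalization, 1 with probes bright on all 8 arrays, and 0 to 3 with an array left out.

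Changes that switched sign were small, except that the mean of its probes put Siglech at 0.049. Alas2 came to 0.0033 in the authors' value table. Acaca came to 0.055 under quantile normalization, 0.0069 in that table and 0.20 with the mean of probes, and Cyp7a1 to 0.067 with normexp and 0.10 in the table. With an array left out, Fasn ranged from -1.25 to 2.03, Scd1 from -1.32 to 0.44, Acaca from -0.58 to 0.49 and Cyp7a1 from -1.02 to 0.91.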
